A study of Mus musculus with 4 samples.

Results

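The venous endothelial cells (ECs) of the mouse lung were represented by 753 nuclei, out of 7491 EC nuclei and 134745 barcodes with at least 1500 transcripts in 4 mice. Transcripts were told apart, and so counted, by unique molecular identifiers (UMIs). A barcode was taken as an EC nucleus when it held at least 1500 UMIs, at most 1 UMI of Ptprc, the pan-leukocyte receptor CD45, and at least 5 UMIs from at least 3 of 8 endothelial genes (Pecam1, Cdh5, Tek, Ptprb, Shank3, Calcrl, Flt1 and Egfl7). It was taken as venous when it also held at least 3 UMIs from at least 2 of 6 venous genes (Slc6a2, Vwf, Mmp16, Lhx6, Samd5 and Kirrel3) and fewer UMIs from 6 arterial genes together (Stk32a, Dkk2, Efna5, Thsd7a, Esr2 and Gja5). The nuclei were thus chosen by the levels of these genes, which are given below as a description.

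Single-nucleus RNA-seq was done on whole lungs of 2 wild-type (WT) mice and 2 VEcad-TRF2DN-Tg mice (Tg mice), all of the C57/BL6J strain and 8 to 9 weeks old. In the Tg mice the VE-cadherin promoter, which is active in ECs of every vessel type, drives a dominant-negative TRF2, a protein that protects telomeres, so that the model is not particular to veins. In the study the Tg animals are heterozygous and male mice were used. Per the study, the lungs for single-nucleus RNA-seq came from WT and Tg mice kept in chronic hypoxia, an exposure shared by all 4 mice that the labels do not give. Each mouse gave 1 library, and values are listed below in the order WT replicate 1, WT replicate 2, Tg replicate 1, Tg replicate 2.

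Pulmonary veins carry oxygenated blood from the alveolar capillaries to the left atrium at low pressure. Their endothelium stores von Willebrand factor in Weibel-Palade bodies together with P-selectin. In other organs, venules are known as a site where leukocytes leave the blood. The transcription factor Nr2f2 (COUP-TFII) and the receptor Ephb4 are known to mark venous against arterial identity, which is set by Notch signalling. The lung is also known to clear noradrenaline from the blood, for which the transporter encoded by Slc6a2 is needed.

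The 4 libraries held 125261739, 146133943, 128645180 and 182014706 UMIs over all barcodes of the deposited matrices, and 26933, 38543, 25269 and 44000 barcodes reached 1500 UMIs. The barcodes ranked 45000 to 90000 by UMIs were taken as droplets without a nucleus, and their RNA as freed in the preparation. They held from 7, 10, 8 and 11 up to 1178, 1296, 988 and 1474 UMIs. Whether shallow nuclei were among them was not tested. Judged by the secretory genes Scgb1a1, Scgb3a1 and Scgb3a2 alone, their profile would account for an estimated 38.9%, 47.0%, 28.5% and 36.6% of the venous UMIs. Markers of other classes were not used, and those of alveolar type 1 cells, given below, lay nearer the droplets. Free RNA of the airway secretory cells was higher in the Tg mice, with club and secretory markers at 18884, 16637, 131299 and 41754 CPM (UMIs of a gene scaled to a common total of all UMIs, as counts per 1000000) in the droplets and at 7487, 7862, 38032 and 15634 CPM in venous ECs. Between each pair of libraries, 176 to 475 barcodes of at least 1500 UMIs were shared, and none of them was venous in both.

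The venous nuclei numbered 156, 49, 352 and 196. Their median depth was 2993, 3442, 2976 and 3351.5 UMIs, with 1841, 2196, 1826 and 2086.5 genes per nucleus, so that depth was similar in the 4 mice. The deepest nuclei held 18467, 17599, 38478 and 22313 UMIs. Mitochondrial genes took 0.0739%, 0.0857%, 0.319% and 0.314% of the venous UMIs, higher in both Tg mice. Summed per mouse, the venous nuclei gave 614669, 206438, 1343462 and 832279 UMIs, so that WT replicate 2 had the least precise levels. No nucleus was dropped as a doublet. The score of cxds is high where genes of different cell types occur together. It would have dropped 35.3%, 49.0%, 40.3% and 50.0% of the venous nuclei, against 21.5%, 30.8%, 20.2% and 35.2% of all barcodes of at least 1500 UMIs. The number dropped was set by the barcode count. Deep nuclei were among those dropped, since the deepest venous nuclei kept held 6457, 10360, 8292 and 6611 UMIs.

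The 6 venous genes of the rule summed to 4035, 3386, 2750 and 2828 CPM in the venous nuclei, against 98.1 to 154 CPM in general capillary ECs and 82.7 to 173 CPM in droplets without a nucleus. The 8 endothelial genes summed to 6574, 6079, 5147 and 5699 CPM, against 784 to 1002 CPM in the droplets. Both gaps follow from the choice of nuclei. Identity genes of veins outside the rule are given below, from a list chosen with earlier results of these data known. Genes of general capillary ECs summed to 1726, 1700, 994 and 1263 CPM, above the 634, 489, 431 and 529 CPM of the droplets. They were below the 2437 to 2855 CPM of the general capillary nuclei, which were themselves chosen by these genes. Smooth muscle markers were at 63.4, 14.5, 48.4 and 37.2 CPM against 21.3, 18.9, 42.7 and 32.7 CPM in the droplets of the same mouse, with the widest gap in WT replicate 1. Pericyte markers were at 58.1 to 112 CPM (66.4 to 93.2 CPM in the droplets) and cardiac muscle markers, which pulmonary vein walls of mice can carry, at 48.4 to 102 CPM (49.4 to 68.6 CPM). Markers of lymphatic ECs were at 106, 208, 252 and 160 CPM in venous nuclei (73.7 to 133 CPM in the droplets), against 467 to 1540 CPM among the barcodes of the arterial rule. Of the venous nuclei, 3, 0, 11 and 4 held at least 2 of the lymphatic genes Prox1, Mmrn1, Reln and Flt4. Ciliated cell markers stood at 1119, 174, 1382 and 495 CPM against 1093, 407, 770 and 410 CPM in the droplets, and 3, 0, 17 and 4 venous nuclei held more of these UMIs than of the endothelial genes after the free RNA was allowed for. Alveolar type 1 markers were near the droplets, at 1482, 2252, 1766 and 1978 CPM against 2053, 2344, 1771 and 1858 CPM, and 4, 3, 16 and 8 venous nuclei held more of these than of the endothelial genes. Red cell markers were above the droplets in WT replicate 1, at 394 against 296 CPM, and below them at 126, 2719 and 1713 CPM against 319, 7856 and 4705 CPM in the others. Markers of alveolar type 2 cells, club cells, macrophages, lymphocytes and platelets were below the droplets in each mouse.

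Slc6a2 (ENSMUSG00000055368; chromosome 8, 92960079 to 93001667, plus strand, GRCm38) encodes the noradrenaline transporter. Its level was 547, 581, 328 and 339 CPM in venous ECs. In general capillary ECs it was 11.4, 1.61, 11.6 and 6.28 CPM and in the droplets 18.3, 9.71, 9.11 and 9.00 CPM. Among the venous nuclei, 57.1%, 57.1%, 51.1% and 50.5% held a Slc6a2 UMI. The share was 3.78%, 0.755%, 2.39% and 2.33% in general capillary ECs and 3.21%, 1.77%, 1.12% and 1.25% in alveolar type 1 nuclei, which should lack the gene, with median depths of 2624 to 3567 and 2016.5 to 3044 UMIs. With each nucleus thinned to 1500 UMIs the venous shares were 44.9%, 46.9%, 36.1% and 34.7%, and those of capillary ECs 0.377% to 1.59%.

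Vwf (ENSMUSG00000001930; chromosome 6, 125546774 to 125686679, plus strand), which encodes von Willebrand factor, was found in 94.2%, 91.8%, 94.0% and 92.9% of the venous nuclei. Its level was 1321, 1138, 1026 and 983 CPM there, 43.9 to 73.0 CPM in general capillary ECs and 81.6 to 317 CPM in the nuclei of the arterial rule. Kirrel3, which encodes an adhesion molecule of the immunoglobulin family, was at 976, 761, 699 and 678 CPM, and Samd5 at 717, 475, 410 and 454 CPM. The membrane metalloproteinase gene Mmp16 was at 402, 383, 227 and 320 CPM. Lhx6, a LIM homeobox transcription factor gene known from interneurons, was found in 20.5%, 16.3%, 18.5% and 18.9% of the venous nuclei and stood at 71.6, 48.4, 58.8 and 55.3 CPM, against 2.28 to 6.44 CPM in general capillary ECs. Every one of the 6 genes was higher in venous ECs than in each other EC class and the droplets of the same mouse, as the rule made likely.

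**Figure D1:**
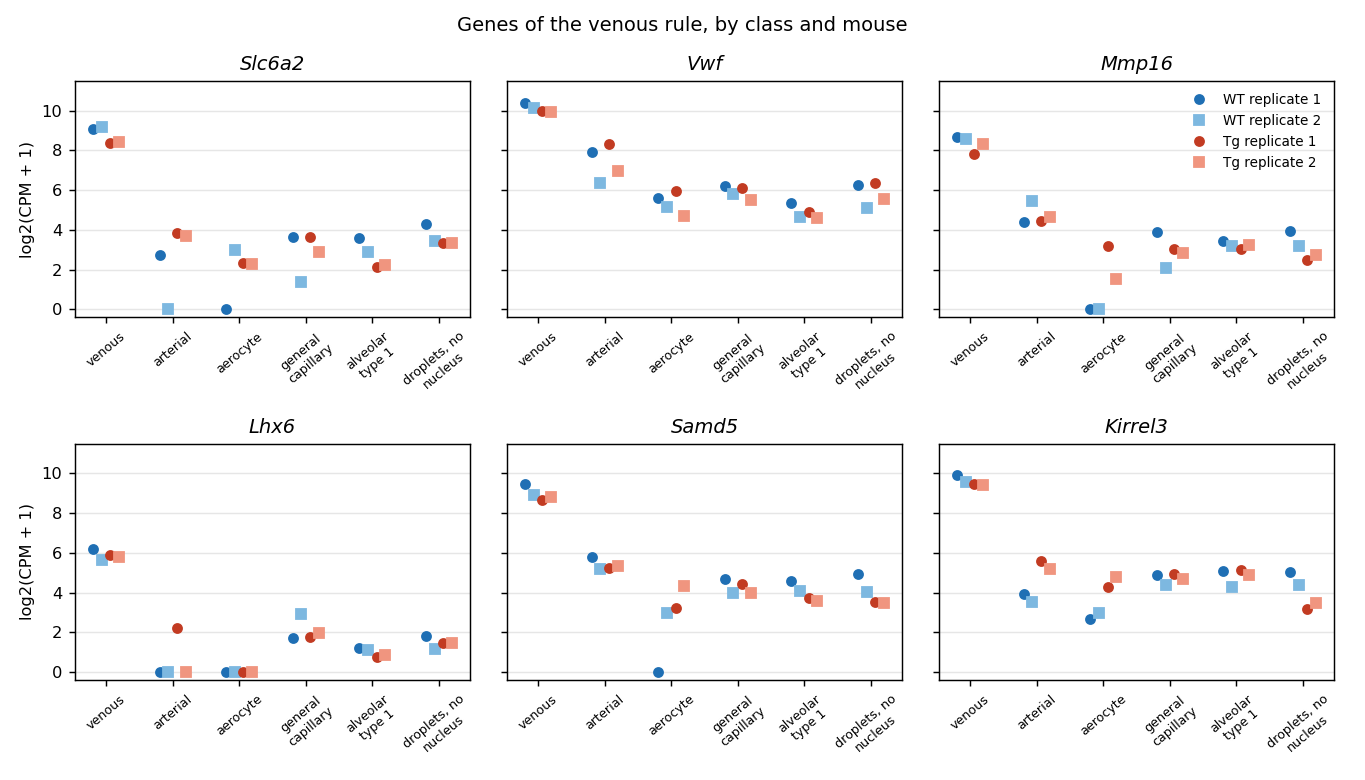
Levels of the 6 venous genes of the rule as log2(CPM + 1), with 1 point per mouse in venous, arterial, aerocyte and general capillary ECs, alveolar type 1 nuclei and droplets without a nucleus. The venous points lie highest in each panel (Slc6a2 at 328 to 581 CPM), and those of general capillary ECs lie near the droplets; these genes chose the venous nuclei.

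The nuclei differed in how many of the 6 genes they showed. At least 4 genes were found in 57.1%, 44.9%, 49.4% and 47.4% of the nuclei, and all 6 in 13, 4, 10 and 11 nuclei. The median number of venous UMIs per nucleus was 12, 7, 8 and 9, and the highest 110, 157, 79 and 74. At the threshold, 14, 6, 44 and 23 nuclei held exactly 3 venous UMIs, and these genes summed to 911, 753, 776 and 776 CPM there. Just outside it, 34, 13, 40 and 32 EC nuclei held 2 UMIs from 2 venous genes, at 793, 563, 504 and 604 CPM. A further 14, 8, 52 and 24 EC nuclei met the venous count with arterial UMIs at or above the venous ones. Both counts were met by 70, 88, 86 and 156 barcodes with 2 or more Ptprc UMIs. The venous but not the endothelial count was met by 114, 42, 89 and 90 barcodes. In these the endothelial genes summed to 445, 386, 405 and 352 CPM. Of the members, 49, 22, 120 and 88 held 1 Ptprc UMI.

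**Figure D2:**
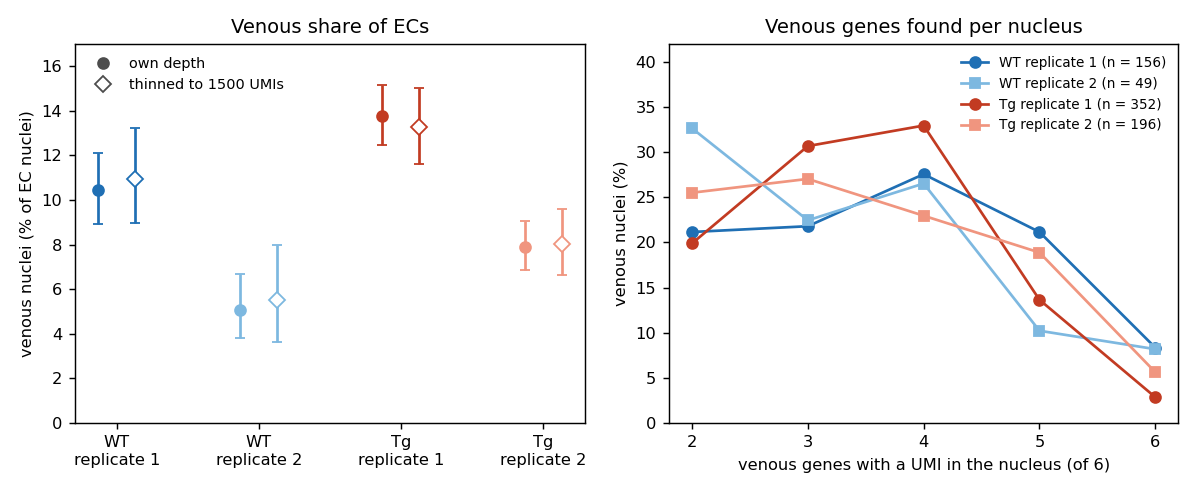
Left, venous nuclei as a percentage of EC nuclei in each mouse with exact binomial 95% intervals, at own depth (filled) and thinned to 1500 UMIs (open). Right, percentage of the venous nuclei in which 2 to 6 of the venous genes were found, with 1 line per mouse; the share with all 6 was lowest in Tg replicate 1, in 10 of 352 nuclei.

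Nuclei with and without a Slc6a2 UMI were set side by side. Vwf was higher where Slc6a2 was found, at 1589 against 952 CPM, 1559 against 605 CPM, 1119 against 926 CPM and 1311 against 715 CPM. Mmp16 behaved likewise, at 522 against 236 CPM, 546 against 176 CPM, 247 against 205 CPM and 492 against 179 CPM, as did Samd5 and Lhx6. Kirrel3 was higher in 3 mice, while in Tg replicate 1 it was at 698 CPM with and 700 CPM without a Slc6a2 UMI. Sema3c, a semaphorin gene on the list of general capillary genes, was lower with Slc6a2 in all 4 mice, at 1145 against 1293 CPM, 909 against 1330 CPM, 557 against 585 CPM and 645 against 953 CPM. The genes of the rule had to be found in part for a nucleus without Slc6a2 to be chosen, which bears on these ratios.

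Next, genes outside the rule were ranked by the lowest ratio over the mice between venous and general capillary ECs. Since the rule chose the nuclei, 14 of the 15 leading genes are given, without a test. Pgm5 (ENSMUSG00000041731; chromosome 19, 24683016 to 24861855, minus strand), which encodes a phosphoglucomutase-related protein of adherens junctions and focal adhesions, led them with 347, 242, 258 and 232 CPM against 10.8, 12.1, 13.9 and 15.2 CPM, 15.2- to 31.2-fold higher. It was also above the nuclei of the arterial rule, at 31.9 to 117 CPM. Ano2, a calcium-activated chloride channel gene, was at 56.9, 38.8, 26.1 and 25.2 CPM against 1.05 to 3.22 CPM, 11.4- to 22.5-fold higher.

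Nrxn3, Mdga2, Tenm2 and Dnm3 were among the 15 genes. Nrxn3, a neurexin gene, was at 161, 53.3, 141 and 123 CPM against 6.44 to 7.85 CPM in general capillary ECs. Mdga2, whose product binds neuroligins, was at 63.4, 43.6, 35.0 and 44.5 CPM against 1.61 to 7.71 CPM. The teneurin gene Tenm2 was at 68.3, 53.3, 7.44 and 13.2 CPM against 1.05 to 4.03 CPM. Dnm3, a dynamin gene, was at 810, 717, 449 and 530 CPM against 94.2 to 183 CPM. For each of these 4 genes, the lowest venous value lay above the highest value of general capillary ECs. Of the list of adhesion molecules and axon guidance genes, 3 of 17 with at least 5 venous UMIs in each mouse were higher than in general capillary ECs in all 4 mice (17.6%, against 13.6% of all genes with that many UMIs) and 3 were lower.

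Selp, Vcam1 and Lyve1 were also among the 15. Selp, which encodes P-selectin, was at 30.9, 43.6, 16.4 and 15.6 CPM against 0.571 to 3.26 CPM. Vcam1, the ligand of a leukocyte integrin, was at 94.4, 48.4, 79.6 and 48.1 CPM against 10.46 to 13.1 CPM. Lyve1, a hyaluronan receptor gene known from lymphatic ECs, was at 53.7, 107, 143 and 80.5 CPM against 5.14 to 27.3 CPM in general capillary ECs and 5.83 to 35.5 CPM in the droplets. Lyve1 was found in 18.6%, 32.7%, 33.5% and 22.4% of the venous nuclei, while the lymphatic regulator Prox1 was at 16.3, 38.8, 14.9 and 3.605 CPM there against 8.22 to 11.4 CPM in the droplets. Others of the 15 were Adgrg6 (an adhesion G protein-coupled receptor gene, at 291, 194, 269 and 201 CPM), Exoc3l2, Fam107a, Gm5127 and 1700020G17Rik.

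**Figure D3:**
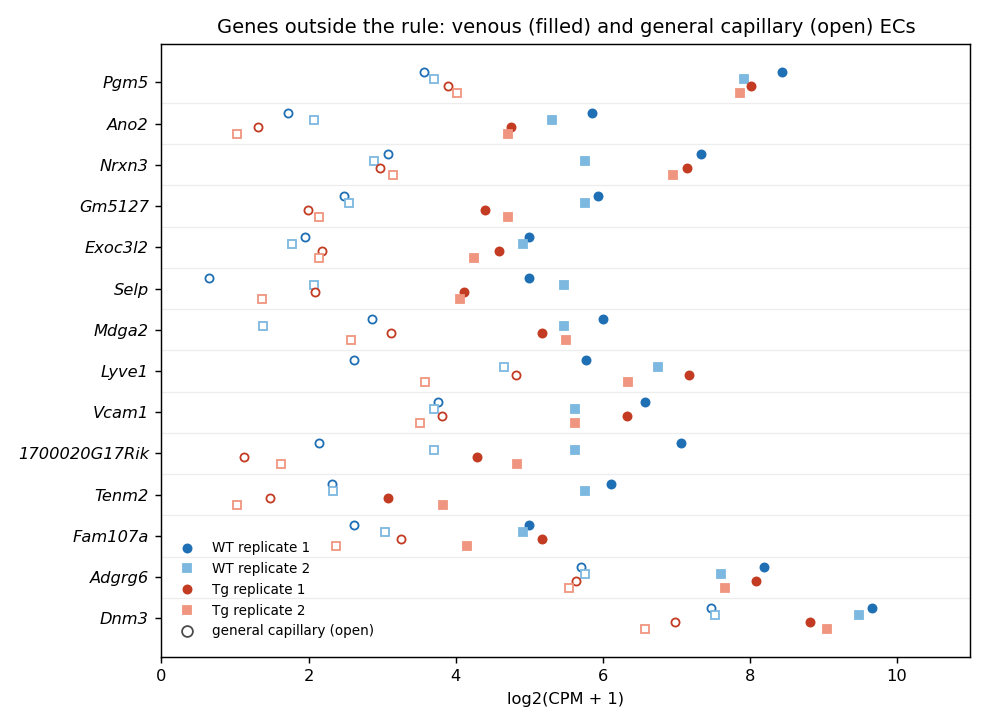
Of the 15 genes outside the rule with the largest ratios of venous (filled) to general capillary ECs (open), 14 are shown as log2(CPM + 1), with 1 point per mouse and class. Pgm5 leads at 232 to 347 CPM against 10.8 to 15.2 CPM, and the filled points lie to the right of the open points of the same mouse in each row.

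Thsd7a was part of the arterial list of the rule, yet it stood at 169, 111, 170 and 171 CPM in venous ECs against 12.3 to 15.4 CPM in general capillary ECs, 8.08- to 13.8-fold higher. In the nuclei of the arterial rule it was at 355 to 470 CPM. A Thsd7a UMI was found in 28.8%, 14.3%, 33.8% and 24.0% of the venous nuclei. Efna5, an ephrin ligand gene of the same list, was at 185, 170, 173 and 167 CPM in venous ECs, below the 238 to 405 CPM of general capillary ECs.

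Identity genes of veins that the rule did not use were mostly higher in venous than in general capillary ECs. This list was chosen with earlier results of these data known, so that its counts are a description. Of the 13 genes of this list with at least 5 venous UMIs in each mouse, 10 were higher in all 4 mice and 1, Emcn, was lower. Over all 6911 genes with that many UMIs, 13.6% were higher in all 4 mice. Against the nuclei of the arterial rule, 9 of the 13 were higher in all 4 mice, as were 1003 of the 6911 genes. The nuclei of that rule also held lymphatic EC markers, at 467 to 1540 CPM. The levels that follow are set beside general capillary ECs. Nr2f2, the venous transcription factor gene, was at 142, 131, 145 and 115 CPM against 47.5 to 73.6 CPM. Ephb4, the receptor of the arterial ligand ephrin-B2, was at 125, 102, 122 and 112 CPM against 65.1 to 78.9 CPM. Cpe, a carboxypeptidase gene, was at 96.0, 136, 174 and 125 CPM against 19.97 to 43.4 CPM, and Ackr3, a scavenger receptor gene for chemokines, at 102, 82.3, 111 and 84.1 CPM against 25.0 to 37.1 CPM. Among the genes of arterial identity, 2 of 6 were higher and 3 of 6 lower than in general capillary ECs in all 4 mice (13.6% and 10.2% of all genes), and the ephrin-B2 gene Efnb2 was at 90.1 to 109 CPM against 114 to 136 CPM.

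Several secreted and signalling genes of the function lists differed in level between venous and general capillary ECs, again as a description. Vegfc, the lymphangiogenic growth factor gene, was at 948, 988, 429 and 579 CPM against 299, 279, 264 and 227 CPM. Nos3, the endothelial nitric oxide synthase gene, was at 104, 77.5, 83.4 and 50.5 CPM against 17.003 to 33.2 CPM. Bmp6, a ligand of the BMP pathway, was lower in venous ECs, at 107 to 132 CPM against 332 to 425 CPM. Jam2, a junctional adhesion molecule of leukocyte passage, was at 185, 145, 176 and 153 CPM against 58.6 to 81.6 CPM. Ntn1, an axon guidance ligand gene, was at 407, 262, 290 and 286 CPM against 133 to 185 CPM. Of the amine uptake and metabolism list, 0 of 4 genes with enough UMIs were higher in all 4 mice, against 13.6% of all genes. For some lists, fewer genes stood above the nuclei of the arterial rule than above general capillary ECs in all 4 mice. It was 1 against 3 of 17 adhesion and axon guidance genes, and 2 against 3 of 6 for leukocyte adhesion. For endothelin, nitric oxide and prostacyclin it was 2 against 4 of 6, and for VEGF and angiopoietin 2 against 3 of 6. The BMP and TGF-β list went the other way, with 4 against 3 of 16. Of all 6911 genes, it was 1003 against 943.

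Venous nuclei made up 10.4% (exact binomial 95% interval 8.94 to 12.1), 5.08% (3.78 to 6.66), 13.8% (12.5 to 15.2) and 7.90% (6.87 to 9.04) of the EC nuclei. The intervals cover counting error only. The share was 7.77% ± 3.79 in WT mice and 10.8% ± 4.16 in Tg mice (SD, n = 2), and the mice of a genotype differed more from each other than the genotype means did. In an exact two-sided permutation test the difference of 3.08 percentage points had p = 0.667, where 2 mice per genotype allow no p under 0.333. The difference moved between 0.137 percentage points without Tg replicate 1 and 6.02 without Tg replicate 2. With nuclei thinned to 1500 UMIs the shares were 10.96%, 5.53%, 13.3% and 8.00%.

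The WT and Tg mice were then compared gene by gene on the UMIs summed over the venous nuclei of each mouse, with edgeR's quasi-likelihood test. Of 9669 genes tested, 201 passed an adjusted p of 0.05 (2.08%), of which 185 were higher in Tg mice (1.91%) and 16 lower (0.165%). The values of the genotypes did not overlap in 48.9% of the genes tested. The 201 genes had the same direction in the droplets without a nucleus in every case, and the median log2 difference of the 185 higher genes was 2.45 in venous ECs and 2.48 in the droplets. Genes of ribosomal proteins or of the mitochondrial genome made up 73 of the 185. In the genotype where the gene was higher, the mean venous level stood above that of the droplets for 33 of the 201 genes, with 23 higher and 10 lower. After the profile of the droplets was subtracted, 0 of 7192 genes passed (edgeR; 644 at an unadjusted p under 0.05). Of the 201, 116 were still tested and 111 kept their direction, with log2 fold changes of −1.65 to 5.36 times those before (median 0.94). Without Tg replicate 1, 67 genes passed, and without the nuclei that cxds marks, 472 of 5915.

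The targeted pathway was looked at first. Terf2, the mouse gene of TRF2, was at 45.6, 53.3, 46.1 and 60.1 CPM (log2 fold change 0.14, SE 0.320, edgeR adjusted p = 0.867). The matrices hold no separate row for the transgene, so that Terf2 does not check the genotype labels. Of the shelterin list 0 of 5 tested genes passed, where 2.08% of all genes did. Cdkn1a, the gene of the CDK inhibitor p21, was at 24.4, 24.2, 35.7 and 52.9 CPM, from 15, 5, 48 and 44 UMIs (log2 fold change 0.85, SE 0.395, edgeR adjusted p = 0.308). It was below the droplets in each mouse, which held 43.2, 67.0, 92.0 and 129 CPM, and found in 8.97%, 10.2%, 12.8% and 17.9% of the venous nuclei against 7.28%, 11.1%, 12.2% and 20.4% of alveolar type 1 nuclei.

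For the genes that chose the nuclei the log2 fold changes are a description with no test, since a nucleus needed their UMIs to be counted at all. Slc6a2 had −0.73 (SE 0.199), Mmp16 −0.52 (SE 0.227), Samd5 −0.47 (SE 0.246), Kirrel3 −0.32 (SE 0.224), Vwf −0.27 (SE 0.220) and Lhx6 −0.12 (SE 0.309). The values moved with the nuclei kept and with the mouse left out. Without the nuclei that cxds marks, Slc6a2 had −0.29 and Samd5 −0.078, while Mmp16, Kirrel3, Vwf and Lhx6 turned to positive values. Without WT replicate 1, Samd5 had −0.12, Kirrel3 −0.13, Vwf −0.16 and Lhx6 0.26, and without Tg replicate 1 Mmp16 had −0.31. Leaving out other mice gave larger falls, down to −0.76 for Samd5, −0.53 for Kirrel3, −0.43 for Vwf, −0.35 for Lhx6 and −0.74 for Mmp16. Calcrl, the receptor gene for adrenomedullin and CGRP among the endothelial genes, was at 2759, 2340, 1172 and 1937 CPM (−0.71, SE 0.287). Its value was −0.41 without Tg replicate 1, −1.07 without Tg replicate 2 and −0.30 after cxds.

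The lower genes above the droplets included Itga2, Tenm2, Iigp1, Gbp4 and Taco1. Itga2 (ENSMUSG00000015533; chromosome 13, 114833081 to 114932100, minus strand), which encodes the α2 subunit of a collagen-binding integrin, was at 151, 165, 43.2 and 48.1 CPM (158 ± 9.47 in WT and 45.6 ± 3.46 CPM in Tg mice, SD, n = 2; log2 fold change −1.76, SE 0.250, edgeR adjusted p = 0.0181). Both Tg mice lay below both WT mice by more than the spread within a genotype, and the values rest on 93, 34, 58 and 40 UMIs. Tenm2 (chromosome 11, 36006656 to 37235964, minus strand), one of the genes that set venous apart from capillary ECs, was at 68.3, 53.3, 7.44 and 13.2 CPM (−2.62, SE 0.425), from 42, 11, 10 and 11 UMIs. Tenm2 met the filter on low counts only through the WT mice, so that its values are a description with no test. In the droplets Tenm2 was at 4.02, 1.63, 0.572 and 0.903 CPM.

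Iigp1 and Gbp4, which encode interferon-inducible GTPases, both fell. Iigp1 was at 169, 160, 46.1 and 57.7 CPM (log2 fold change −1.66, SE 0.250, edgeR adjusted p = 0.0216), and the droplets held 187, 105, 29.7 and 47.8 CPM, above the venous level in WT replicate 1. Without the nuclei that cxds marks, Iigp1 had −1.06 and adjusted p = 0.104. Gbp4 was at 133, 121, 33.5 and 45.7 CPM (−1.70, SE 0.281, 0.0276). It overlaps its paralogs Gbp8 and Gbp9 on the same strand, so that its counts are uncertain. Both genes were lower in general capillary ECs of the Tg mice as well, with Iigp1 at 282, 251, 64.7 and 97.0 CPM and Gbp4 at 130, 114, 47.5 and 59.9 CPM.

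Taco1 (chromosome 11, 106066061 to 106073612, plus strand), which encodes a translational activator of mitochondrial cytochrome c oxidase subunit I, was at 438, 252, 74.4 and 84.1 CPM (log2 fold change −2.15, SE 0.294, edgeR adjusted p = 0.0179). General capillary ECs held nearly the same levels, at 326, 251, 67.6 and 83.2 CPM. Pde1c, a phosphodiesterase gene, was at 87.9, 131, 34.2 and 24.0 CPM (−1.79, SE 0.347, 0.0450). Serpina3g, a serine protease inhibitor gene, was at 37.4, 24.2, 5.21 and 6.01 CPM (−2.52, SE 0.492). Khdrbs3, an RNA-binding protein gene, was at 50.4, 53.3, 14.1 and 12.0 CPM (−1.92, SE 0.383). Without the WT mice, Serpina3g and Khdrbs3 would not have met the filter on low counts, so that their values are a description with no test. The 16 genes named by size, 8 higher and 8 lower, kept their direction whichever mouse was dropped, though not all calls held. Dropping a mouse leaves 1 of its genotype, so that only sizes are given. Itga2 then ranged from −1.84 to −1.71 (log2), Tenm2 from −2.99 to −2.23, Iigp1 from −1.78 to −1.52 and Gbp4 from −1.88 to −1.49. For Itga2, Tenm2, Iigp1 and Gbp4 the smallest fall was the one without Tg replicate 1. Taco1 ranged from −2.50 to −1.65. Without the nuclei that cxds marks, 10 of the 16 were tested and 8 passed. Iigp1 and Pde1c did not, the latter with −0.51 and adjusted p = 0.697.

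Of the 23 higher genes above the droplets, 14 are annotated as antisense (60.9%, against 1.65% of the genes tested) and 6 as protein coding. A gene on the opposite strand overlaps 22 of the 23 (95.7%), against 38.3% of the genes tested. These shares are a description, since the 23 genes were kept for a level above the droplets, where antisense genes took a smaller share of the UMIs in Tg mice than in venous ECs, as given below. Gm20631 (chromosome 1, 150625266 to 150783499, plus strand) was at 13.02, 9.69, 171 and 76.9 CPM (log2 fold change 3.39, SE 0.570). Gm20631 met the filter on low counts only through the Tg mice, so that its values are a description with no test. Hmcn1, the hemicentin gene on the other strand, was at 2055, 1269, 1571 and 1294 CPM (log2 fold change −0.20, edgeR adjusted p = 0.775). Gm15883, which lies opposite the secretory cell gene Cyp2f2, was at 14.6, 19.4, 175 and 179 CPM (log2 fold change 3.47, SE 0.318, edgeR adjusted p = 0.0149). Of 21 opposite-strand partners that were tested, 0 passed in edgeR and 0 in DESeq2, where 2.08% of all genes and 3.24% of the 6295 genes with an adjusted p in DESeq2 did. An unadjusted p under 0.05 was found for 4 of the 21 (19.0%) and for 17.5% of all genes.

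Other genes of this kind were near 0 in WT mice. Gm7480, opposite Lrmda, had 0, 0, 42 and 19 UMIs, at least 7.67-fold higher in Tg mice against a floor of 3 counts over the WT mice. Rsf1os1 had 1 UMI in WT and 64 in Tg mice (ratio 24.2, counting interval 4.18 to 969) and 3110021N24Rik had 3 and 111 (ratio 13.96, 4.66 to 68.7). Gm7480, Rsf1os1 and 3110021N24Rik met the filter on low counts and the droplet limit only through the Tg mice. Their values are thus a description with no test. The protein-coding gene Wdr17 was at 24.4, 29.1, 424 and 185 CPM (3.59, SE 0.512, 0.0181). It was higher still in other ECs of the Tg mice, at 727 and 508 CPM in general capillary ECs against 58.8 and 45.9 CPM in the WT mice. All genes annotated as antisense together took 0.711%, 0.673%, 1.46% and 1.12% of the venous UMIs, 0.708%, 0.690%, 1.34% and 1.09% of those of general capillary ECs, and 0.848%, 0.767%, 1.62% and 1.23% of those of alveolar type 1 nuclei. In the droplets the share was 0.725%, 0.615%, 0.553% and 0.650%. The part of library preparation in these values was not tested.

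**Figure D4:**
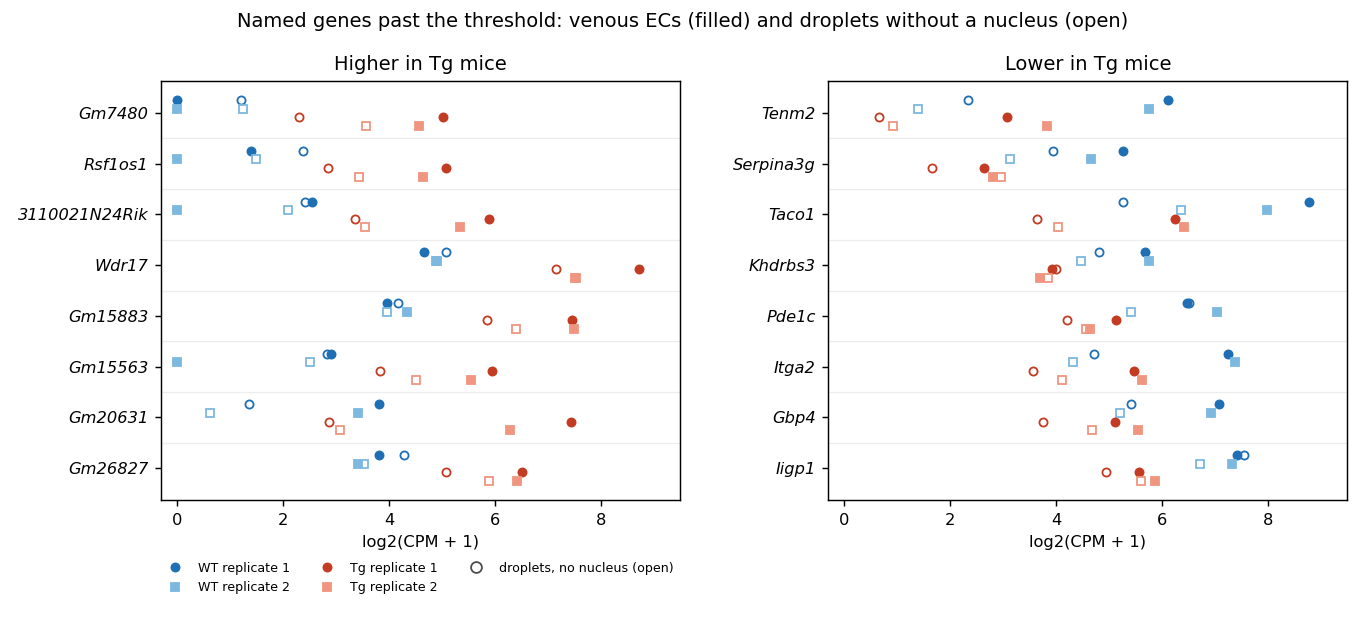
The 8 genes with the largest rise (left) and the 8 with the largest fall (right) in venous ECs of Tg mice among those past the threshold and above the droplets, as log2(CPM + 1). Filled points are venous ECs and open points droplets without a nucleus, 1 per mouse; Itga2 lies at 151 and 165 CPM in the WT mice and at 43.2 and 48.1 CPM in the Tg mice.

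Lists of genes by function were counted in the same test, beside the 2.08% of all genes that passed and their median log2 fold change of 0.0072. Of 176 tested genes in the 18 lists, with Ptprb left out as a gene of the rule, 0 passed in edgeR and 34 had an unadjusted p under 0.05 (19.3%, against 17.5% of all genes). In DESeq2 3 of the 145 with an adjusted p passed (2.07%, against 3.24%), Hdac9, Vegfc and Eln. Hdac9, a class IIa histone deacetylase gene of the vein list, was at 988, 1095, 374 and 565 CPM (log2 fold change −1.14, SE 0.245, edgeR adjusted p = 0.0619). For Vegfc the log2 fold change was −0.93 (SE 0.223, adjusted p = 0.0814), and in general capillary ECs Vegfc was at 227 to 299 CPM in the 4 mice. The elastin gene Eln was at 181, 189, 485 and 336 CPM (1.19, SE 0.264, 0.0671), against 119, 103, 179 and 253 CPM in the droplets.

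The vein list had 5 tested genes with a positive and 8 with a negative log2 fold change (median −0.28), and the endothelial transcription factors 2 and 10 (median −0.30). Adhesion molecules and axon guidance genes were mostly negative, with 18 of 19 (median −0.25). Over all 9669 genes tested, 4776 were negative. None of the 19 passed, with a lowest edgeR adjusted p of 0.269 for Robo1. The senescence secretory factors had 4 positive and 2 negative genes with the largest median, 0.89. Igfbp7, a growth factor binding protein gene of that list, was at 70.0, 33.9, 142 and 127 CPM (1.25, SE 0.327, edgeR adjusted p = 0.102), with 72.9, 68.2, 250 and 145 CPM in the droplets. None of the 5 genes of the secretory list with enough UMIs was above the droplets in all 4 mice, where 29.2% of all genes with that many UMIs were. Of the Notch list, 6 genes were positive and 3 negative, and its target Hes1 was at 50.4, 48.4, 130 and 108 CPM (1.29, SE 0.285, 0.0665), below the droplets of the same mouse at 139, 120, 209 and 187 CPM. Jag1, the Notch ligand gene, was at 135, 58.1, 67.7 and 79.3 CPM (−0.50, SE 0.357, 0.510).

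The coagulation list had 6 positive and 3 negative genes (median 0.38), leukocyte adhesion 3 and 5 (−0.12), junction and barrier genes 5 and 8 (−0.091), the VEGF and angiopoietin pathway 5 and 4 (0.070), and BMP and TGF-β 7 and 10 (−0.034). Endothelin, nitric oxide and prostacyclin genes had 7 and 3 (0.20), amine handling 3 and 3 (0.045), CDK inhibitors and p53 targets 5 and 4 (0.068), shelterin 4 and 1 (0.14), the hypoxia response 4 and 6 (−0.19), basement membrane 7 and 5 (0.18), arterial identity 4 and 4 (−0.015) and immediate early genes 3 and 2 (0.67). These are signs of fitted values, and a list with no gene past the threshold is not thereby shown to be level between the genotypes. On simulated venous sums the test found 69.0% of genes changed 4-fold and 3.5% of genes changed 2-fold.

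Last, the genotype difference was compared between venous and general capillary ECs of the same mice, in an edgeR model with a term for each mouse. Of 12366 genes, 4 passed (0.0323%), and 634 had an unadjusted p under 0.05. Without the nuclei that cxds marks, 0 of 8461 passed (476 at an unadjusted p under 0.05). Itga2 was lower in Tg mice in venous ECs, as given above, while in general capillary ECs it was at 141, 107, 96.7 and 88.4 CPM. The difference between the fold changes was −1.35 (log2, SE 0.259, edgeR adjusted p = 0.0462). The call was lost with WT replicate 2, Tg replicate 1 or Tg replicate 2 left out, at adjusted p of 0.0680, 1.00 and 0.0920. It was also lost with DESeq2 (1.00), no TMM factor (0.176), cxds (0.151), free RNA subtracted (0.802), 5 venous UMIs (0.811) and 2500 UMIs (0.0928), with differences of −1.10 to −1.51 in all of these settings. In aerocytes, the capillary ECs of gas exchange, Itga2 was at 261, 225, 85.8 and 116 CPM, so that both Tg mice were below both WT mice there too. That class was not part of the test.

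Rgs6, a gene of a regulator of G protein signalling, was at 22.8, 29.1, 50.6 and 99.7 CPM in venous and at 240, 102, 124 and 134 CPM in general capillary ECs (2.15, SE 0.393, edgeR adjusted p = 0.0289). Aerocytes held far more of it, at 2053, 2111, 821 and 1230 CPM. Without WT replicate 1 or Tg replicate 2 the difference of Rgs6 was 0.97 and 1.73, at adjusted p of 0.692 and 0.107. With 5 venous UMIs it was 1.56 and with free RNA subtracted 2.86, in a range of 0.97 to 2.86 over all other settings. The adjusted p was 1.00 with DESeq2, 0.140 with no TMM factor, 0.622 with cxds, 0.642 with free RNA subtracted and 1.00 with 5 venous UMIs. The hemoglobin genes of red cells, Hba-a1 and Hba-a2, had differences of −1.68 (SE 0.297, adjusted p = 0.0258) and −1.86 (SE 0.257, adjusted p = 0.000683). Hba-a2 was at 145, 67.8, 380 and 279 CPM in venous, 37.7, 33.8, 415 and 314 CPM in general capillary ECs and 104, 104, 1029 and 755 CPM in the droplets, so that the classes differed most in the WT mice. Without WT replicate 1 the difference was −1.14 for Hba-a2 and −0.094 for Hba-a1, at adjusted p of 0.449 and 0.985. After cxds the adjusted p was 0.151 for Hba-a2 and 0.218 for Hba-a1, and the call of Hba-a1 was also lost with no TMM factor (0.140) and 5 venous UMIs (0.381). With free RNA subtracted, Hba-a2 kept 64, 4, 117 and 2 UMIs in venous and 0, 0, 235 and 72 in general capillary ECs, so that its fitted difference of −10.4 (adjusted p = 0.287) rests on a class at 0 and is no measure of size. For Hba-a1, at 0 in both WT mice of that class too, it was −9.16 (0.143). With DESeq2, 0 of the 12366 genes passed (66 at an unadjusted p under 0.05).

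**Figure D5:**
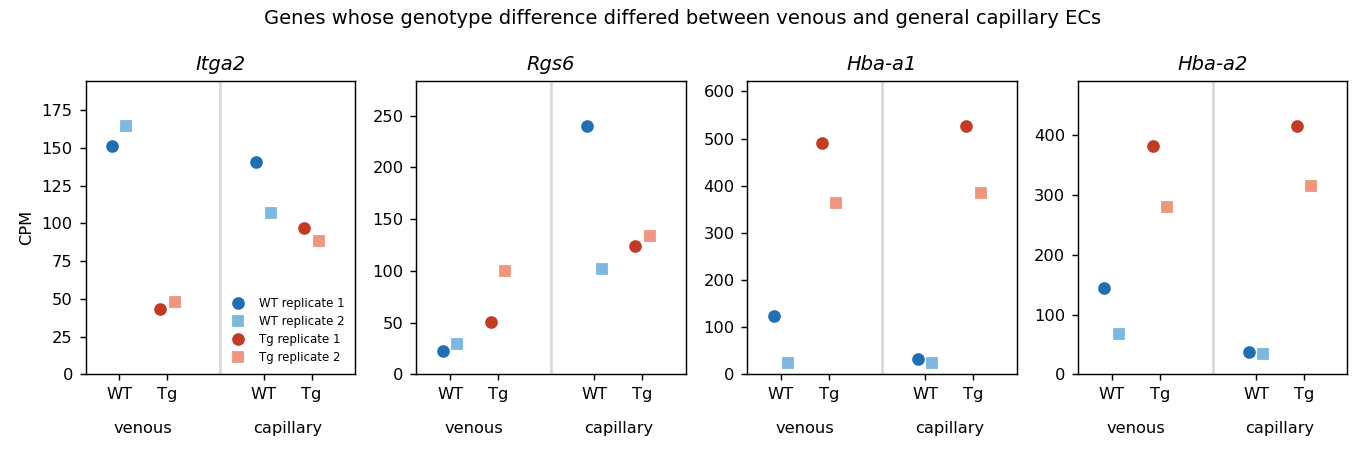
CPM of the 4 genes whose genotype difference differed between venous and general capillary ECs, with 1 point per mouse and the axis starting at 0. Itga2 separates the genotypes in venous ECs (151 and 165 against 43.2 and 48.1 CPM) more than in general capillary ECs (141 and 107 against 96.7 and 88.4 CPM).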

How the data were processed

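The authors deposited, for each of the 4 mice, all barcodes, unfiltered, with their UMI counts over 32285 genes. Per the labels, reads were processed with Cell Ranger 6.1.1 on mm10, and in the study intronic reads were counted. Its removal of free RNA, of doublets and of low quality nuclei, and its integration, are not part of these counts. No column was left unmapped.

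The rule was applied to the barcodes as deposited, with no doublet dropped. Arterial, aerocyte and general capillary ECs and alveolar type 1 nuclei were taken by the same kind of rule, each from at least 3 UMIs of 2 genes of its own list (alveolar type 1 from 5 UMIs of 3 genes). UMIs were summed per mouse and class, since nuclei of 1 mouse are not replicates. WT and Tg sums were tested in edgeR (quasi-likelihood F-test, TMM factors) for the genes kept by filterByExpr at 10 UMIs or more, and p-values were adjusted by Benjamini-Hochberg over all of them, called under 0.05. The comparison with general capillary ECs used a term for each mouse. Replicate sums differed by more than sampling noise (chi-square over degrees of freedom 3.35 in WT and 5.38 in Tg mice). The labels do not say whether the mice were handled together. CPM was computed as the UMIs of a gene in a class and mouse, divided by all UMIs of that class and mouse and scaled to 1000000, and 0.5 UMI was added in class ratios. A 3′ count is not a level per length, so that levels were not compared between genes.

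The genes named were the 14 genes of the endothelial and venous parts of the rule, Terf2, Cdkn1a, the 15 genes with the largest class ratios (at least 5 UMIs in every mouse and above the droplets; 1 of them is not reported here), the 8 largest rises and falls past the threshold above the droplets without markers of other classes, and the 3 highest genes of each function list. Other genes, such as Slc6a2 against Sema3c, Thsd7a, Efna5, Nos3, Bmp6, Hes1, Prox1 and the 4 genes of the class comparison, were chosen after their values were seen. The members, the lists and the rules were chosen with earlier results of these data known. On simulated venous sums the test recovered 69.0% of 200 genes changed 4-fold (9283 genes, 1.43% of its calls false) and 3.5% of 200 changed 2-fold (9277 genes, 12.5% of its calls false). Positions are those of GENCODE M21 (GRCm38), in which 32158 of the 32285 gene IDs were found.

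Depth was 206438 to 1343462 UMIs per mouse in the venous sums, and intervals cover counting error only. Alternatives were DESeq2, no TMM factor, no filter, the replicate block, each mouse left out, cxds (0.8% of barcodes per 1000 dropped), free RNA subtracted, 5 venous UMIs, 2500 UMIs and nuclei thinned to 1500 UMIs. The software was Python 3.11.15 (with pandas 2.3.3, NumPy 2.4.6, SciPy 1.17.1 and matplotlib 3.10.9) and R 4.3.3 (with DESeq2 1.42.0, edgeR 4.0.16, data.table (version 1.17.8) and limma 3.58.1).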

Additional observations from a re-analysis of the deposited data

Results flagged for a closer look

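The genotype difference in venous ECs was set against that in general capillary ECs, and 4 genes passed edgeR's test of the difference between the classes. For Itga2 it was −1.35 on the log2 scale, with the lower levels in venous ECs of the Tg mice, and the call was lost in 9 other settings, among them DESeq2 (adjusted p = 1.00), no TMM factor (0.176), cxds (0.151) and without Tg replicate 1 (1.00). For Rgs6 it was 2.15, with venous levels of 22.8 and 29.1 CPM in WT and 50.6 and 99.7 CPM in Tg mice, while without WT replicate 1 it was 0.97. The call was lost with DESeq2, cxds (edgeR adjusted p = 0.622) and free RNA subtracted (0.642). With free RNA subtracted the difference of Rgs6 was 2.86. For Hba-a2 it was −1.86 and for Hba-a1 −1.68, where venous ECs of the WT mice held 124 and 24.2 CPM of Hba-a1 and general capillary ECs 33.1 and 24.2 CPM. With the nuclei left out that held more UMIs of another class than of the endothelial genes after free RNA was allowed for, an alternative chosen after seeing the data, Hba-a2 had −0.83 and Hba-a1 −0.82 (edgeR adjusted p = 0.861 for both), Itga2 −1.02 (0.295) and Rgs6 2.17 (0.00523).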

How the results depend on the processing

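The 201 genes that passed in venous ECs became 833 with no filter on low counts, 472 of 5915 without the nuclei marked by cxds and 560 without nuclei of other classes above the free RNA, the last chosen after seeing the data because the planned limit on other classes left 54, 10, 0 and 9 nuclei and gave no value. They became 0 with free RNA subtracted (edgeR, 644 at an unadjusted p under 0.05, lowest adjusted p 0.336), where 111 of the 116 still tested kept their direction, and 67 to 841 with each mouse left out, lowest without Tg replicate 1 and highest without WT replicate 2. With the replicate block 679 genes passed. The labels do not say that the replicate numbers pair mice, and the deviations of same-numbered mice correlated at 0.212, a single value with 2 mice per genotype. DESeq2 gave 204 (158 shared with edgeR), no TMM factor 256, 5 venous UMIs 173 and 2500 UMIs 178. The share of higher genes was 92.0% and was 70.1% without WT replicate 1. The 4 genes that differed between the classes became 0 with DESeq2, 1 with no TMM factor, 25 with no filter, 0 with cxds (edgeR, 476 at an unadjusted p under 0.05), 0 with free RNA subtracted (486), 1 with 5 venous UMIs, and 6 to 85 with a mouse left out. Of the 16 genes named by size, 16 passed with no TMM factor, with no filter and with the block, and 15 with 2500 UMIs. It was 12 with 5 venous UMIs, 10 of the 11 with an adjusted p in DESeq2 and 8 of 10 tested with cxds. With free RNA subtracted 0 passed, and their log2 fold changes were 0.93 to 1.64 times those before, which their choice above the droplets favours. With a mouse left out not all calls held, and the fewest did without Tg replicate 1. The fold changes of genes of the rule and of Terf2 turned with cxds for Tek (0.15), Flt1 (0.29), Vwf (0.087), Mmp16 (0.074), Lhx6 (0.35) and Kirrel3 (0.31), with free RNA subtracted for Ptprb (−0.036) and Egfl7 (−0.11), and with a mouse left out for Egfl7 (−0.011 to 0.18), Lhx6 (−0.35 to 0.26) and Terf2 (−0.022 to 0.30, with −0.0028 without WT replicate 1), and with 5 venous UMIs for Terf2 (−0.13). The cause was not tested. The difference in share, 3.08 percentage points in the main setting, fell to 1.09 to 2.88 under the settings of nuclei and depth. It was 1.73 with 5 venous UMIs and lowest, at 1.09, with 2500 UMIs. The exact permutation test gave p = 0.667 in each. At 206438 UMIs, WT replicate 2 limits the levels of sparse genes most.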

Other observations

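Receptors and enzymes of the venous nuclei that the comparisons above left out, chosen after their values were seen, are given as levels. Il1r1, the interleukin-1 receptor gene, was at 319, 228, 149 and 190 CPM in venous ECs against 73.6 to 102 CPM in general capillary ECs. Nrp2, a co-receptor gene for VEGF-C and semaphorins, was at 296, 228, 212 and 221 CPM against 89.9 to 142 CPM, while Nrp1 was lower in venous ECs, at 534, 315, 341 and 568 CPM against 504 to 698 CPM, and below its own mouse's capillary level in each. Prcp, a carboxypeptidase gene of the kallikrein and angiotensin systems, was at 231, 131, 81.1 and 73.3 CPM (log2 fold change −1.26, SE 0.301, edgeR adjusted p = 0.0794). Ltbp1, which encodes a binding protein of latent TGF-β, was at 971, 455, 302 and 350 CPM against 176 to 245 CPM, highest in WT replicate 1. Htr2a, a serotonin receptor gene, was at 19.5, 19.4, 8.93 and 15.6 CPM against 5.49 to 9.13 CPM. Ptgs1, the gene of cyclooxygenase 1, was at 119, 67.8, 109 and 117 CPM against 47.4 to 76.6 CPM.

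Ackr1, the chemokine receptor gene known from venules of other organs, had 0, 0, 0 and 1 UMI in these nuclei, and the E-selectin gene Sele 4, 0, 0 and 1, so that neither was measurable in every mouse at this depth. Icam1 was at 94.4, 136, 105 and 121 CPM, below the droplets in each mouse.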
